A study of Zea mays with 12 samples.

Results

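In the maize leaf, 182 genes were more abundant in mesophyll (M) than in bundle sheath (BS) cells at each of 3 stages of development. They were chosen from 110005 gene models, 47572 of them detected in some library. A gene was taken when, at every stage, its mean in the M libraries was at least 20 FPKM and at least 2 times its mean in the BS libraries, and both M values lay above both BS values. FPKM, fragment counts scaled to transcript length and to the mapped total of the library, were used as deposited. Of the 190 genes that met these limits, 8 well-known M genes, those of C4 carbon metabolism and the regulator GLK1, were left out and serve below as a yardstick. The M to BS ratio thus chose the members, and it is described here with no test of it taken as support.

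The cells were cut by laser microdissection from the third leaf of seedlings of the inbred Mo17, 9 days old, and their RNA was amplified before sequencing. SST cells came from the position at -1 cm relative to the sink-source transition (SST), maturing cells from 4 cm above that transition, and mature cells from 9 cm above it, at the leaf tip. The labels give only the numbers 4, 9 and 14 of the leaf sections. These were taken as SST, maturing and mature by their order and spacing. Each of the 6 groups, M and BS at SST, maturing and mature, held 2 libraries, 12 in all, from untreated seedlings. The labels do not say whether the 2 libraries of a group came from separate plants, so p-values measure the spread between these libraries, which may be technical.

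In a C4 leaf, M cells fix CO2 into a C4 acid that moves to the BS cells around the vein, where CO2 is released and refixed by Rubisco. Both cells share the rest of the work. The M chloroplast carries out most of the linear electron transport, and takes back part of the phosphoglycerate made in the BS for reduction, and M cells reduce nitrate. A gene family can therefore have one member that serves the M and another that serves the BS.

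The depth of the libraries, relative to the first SST BS library, ranged over 0.645 to 2.36, with the 4 maturing libraries the deepest and the SST M libraries the shallowest. The 6 BS genes of the marker list, among them those for NADP-ME and the Rubisco small subunit, were higher in both BS libraries than in both M libraries at each stage, by 1.81 to 8.06 times at SST, 5.51 to 41.0 times at maturing and 3.61 to 15.4 times at mature. M libraries still held 226 to 652 FPKM of NADP-ME transcript, against 3035 to 10342 FPKM in BS libraries. Epidermal genes (6 of 14 on the list could be matched) summed to 9.25 to 18.5 FPKM in M libraries, against 1.04 to 7.07 FPKM in BS libraries, with ocl4 at or near 0 throughout. Vascular genes (4 of 7 matched), led in the BS libraries by the sucrose transporter gene sut1, summed to 11.8 and 17.7 FPKM in SST M against 125 and 132 FPKM in SST BS libraries, and to 4.80 and 7.68 FPKM in maturing M against 279 and 299 FPKM in maturing BS libraries. At mature the sums overlapped, at 34.6 and 61.9 FPKM in M against 47.6 and 47.9 FPKM in BS libraries, and the sucrose synthase genes sus1 and sus2 were higher in M, with 12.99 and 11.9 FPKM in M against 3.17 and 0.776 FPKM in BS for sus1, and 9.66 and 45.9 FPKM in M against 4.11 and 5.94 FPKM in BS for sus2. The part that RNA of other cells had in the M to BS ratios was not tested.

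The mature BS libraries stood apart from each other. Of the 182 members, 165 were higher in the first than in the second, with a median ratio of 1.71, whereas this ratio was 0.897 over 4209 other genes of at least 20 FPKM in these libraries. All 8 M genes that were left out were higher in the first library, by 1.54 to 3.06 times, and all 6 BS genes were at 0.632 to 0.954 times their level in the second. In the other groups the median ratio of the first to the second library lay between 0.824 and 1.09 over the members. Without the first mature BS library 200 genes met the rule, and without the second 144 did. Members whose mature BS values differ widely are therefore given by library.

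**Figure D1:**
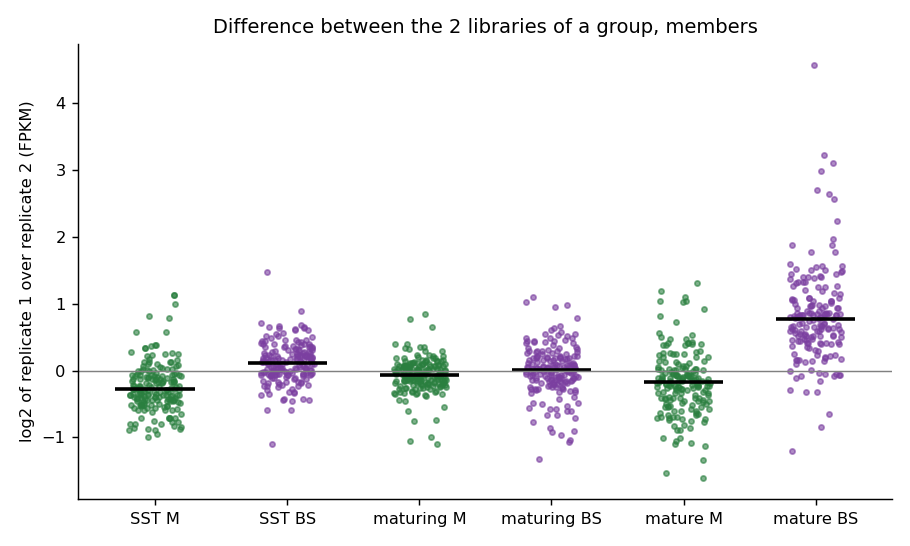
The y axis gives the log2 ratio of replicate 1 to replicate 2 in FPKM, the x axis the 6 groups, each point is a member above 0 in both libraries, and the bar is the median. Points of the mature BS group lie mostly above 0, where 165 of 182 members were higher in the first library, while in SST M and mature M 36 and 54 of 182 were, with median ratios of 0.824 and 0.886.

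The mean level of the members in M cells ran from 20.2 FPKM to 19357 FPKM. Their median was 96.9 FPKM in SST M cells against 31.3 FPKM in SST BS cells, 155 FPKM in maturing M cells against 50.1 FPKM in maturing BS cells, and 113 FPKM in mature M cells against 38.8 FPKM in mature BS cells. The members took 8.04 to 12.0% of the summed FPKM of M libraries and 2.57 to 4.10% of that of BS libraries. A few genes made up much of this, since the 5 most abundant held 37.7, 44.4 and 49.8% of the members' FPKM in SST, maturing and mature M cells. FDX1 was the second most abundant member, behind GRMZM2G472852, to which no name could be given, and gpb1 was the sixth. The study states that RNA amplification drew reads towards transcript ends, so that long transcripts were not over-represented. FPKM divides by length and may then place long genes too low. Ranks and shares between genes, and the floor of 20 FPKM, are limited by this.

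The M to BS ratio had a median of 3.48 in SST, 2.98 in maturing and 2.89 in mature cells, and the quartiles were 2.66 and 4.40 at SST, 2.57 and 3.73 at maturing, and 2.39 and 3.67 at mature. The 8 genes left out had ratios of 2.75 to 4.48 at SST, 2.44 to 5.35 at maturing and 2.30 to 3.68 at mature, and so lay among the members. At SST 44 members were above all 8, at maturing 12 and at mature 46, but no member was above all 8 at every stage. The ratio was highest at SST in 83 members, at maturing in 44 and at mature in 54, and could not be ranked in 1 with BS values of 0.

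**Figure D2:**
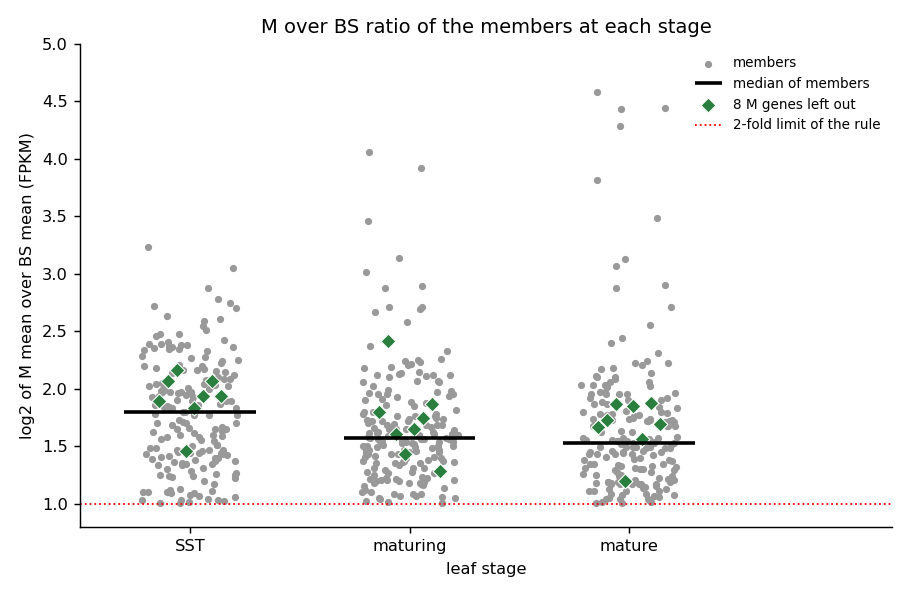
The y axis gives the log2 ratio of the M mean to the BS mean in FPKM at the 3 stages (x axis). Grey points are members, bars their median, green diamonds the 8 M genes left out, and the dotted line the 2-fold limit; the diamonds lie within the cloud of members, and 3 member values with BS at 0 are not drawn.

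The smallest of the 3 ratios of a gene says how far M exceeded BS throughout. It was at least 3 in 45 members and at least 4 in 4, and its median was 2.55. GRMZM2G152975, with no name, led with ratios of 5.25, 4.54 and 4.97 at SST, maturing and mature, and GRMZM2G060742 followed with 4.12, 5.19 and 5.26. Their mature BS values differed widely, with 24.4 and 26.9 FPKM in mature M cells against 7.39 and 2.94 FPKM in mature BS cells for GRMZM2G152975, and 86.5 and 115 FPKM in mature M cells against 27.9 and 10.4 FPKM in mature BS cells for GRMZM2G060742, and the ranking uses their means. Of the named members, eks1 (GRMZM2G049538) had the largest smallest ratio with 3.87, then sps1 with 3.84, the mannan endohydrolase gene GRMZM2G055585 with 3.79, eno1 with 3.63 and pDCT1 with 3.60. Just inside the limit were GRMZM2G325683 and histone2b1 (GRMZM2G071959), both at 2.005, and GRMZM2G095082 at 2.007. Just outside it were GRMZM2G056424 at 1.986, GRMZM5G887902 at 1.981 and GRMZM2G179518 at 1.980, of 673 genes that met all other limits.

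An entry of the RefSeq maize annotation matched 124 members, and a name could be given to 37, 25 from RefSeq and 12 from the annotation supplied with the study. The other 145 are counted, and those that lead a ranking, lie at a limit, are neighbours or belong to a small count appear by identifier. In 2 pairs, members were neighbours among the RefSeq protein-coding genes: eks1 with GRMZM2G093526, and GRMZM2G032430 with GRMZM2G014695. The named members are described by role, some of them with chosen relatives that are not members, for which M and BS were compared by limma on the log2 values. The test shares a spread per gene over all 12 libraries. Libraries that differ widely in any group, such as mature BS, thus weaken the calls at every stage. Over all 32548 genes tested, the share called higher in M at an adjusted p below 0.01 was 1.44% for SST cells, 3.56% for maturing cells and 2.07% for mature cells, and the share called lower was 1.64, 4.82 and 3.66%. Members were chosen by the ratio, not by this test, which called 89, 124 and 81 of the 182 at SST, maturing and mature. These counts follow from the choice and are no support for it. A relative that did not pass is thus not set apart from the members by that alone.

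Among the members, 3 belong to the light reactions. FDX1 (GRMZM2G122337) codes for a ferredoxin, the carrier that takes electrons from photosystem I. It had 9402 and 12638 FPKM in SST M cells against 4994 and 3874 FPKM in SST BS cells, 19804 and 18910 FPKM in maturing M cells against 6566 and 6499 FPKM in maturing BS cells, and 9705 and 10825 FPKM in mature M cells against 5178 and 3902 FPKM in mature BS cells. Its level was highest at maturing in both cell types. Of the other ferredoxin genes, fdx2 (GRMZM2G048313) ran the opposite way, with 214 and 252 FPKM in maturing M cells against 5856 and 4032 FPKM in maturing BS cells. It was lower in M at all stages, with log2 differences of -2.14 at SST (adjusted p = 0.0085), -4.22 at maturing (adjusted p = 0.00017) and -3.33 at mature (adjusted p = 0.00088, limma). fdx3 (GRMZM2G053458) was lower in M at maturing (-1.02, adjusted p = 0.0020) and mature (-1.09, adjusted p = 0.0022), and fdx5 (GRMZM2G122327) and FDX6 (GRMZM2G106190) passed the test at no stage.

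L-FNRII (GRMZM2G059083) codes for a leaf ferredoxin-NADP reductase, which passes electrons from ferredoxin to NADP. It had 78.9 and 112 FPKM in SST M cells against 21.0 and 22.1 FPKM in SST BS cells, 193 and 191 FPKM in maturing M cells against 54.0 and 61.0 FPKM in maturing BS cells, and 315 and 238 FPKM in mature M cells against 113 and 75.8 FPKM in mature BS cells. Both cell types were lowest at SST. Its relative L-FNRI (GRMZM2G168143) had 984 and 1093 FPKM in maturing M cells against 599 and 485 FPKM in maturing BS cells, and its differences of 1.11, 1.11 and 0.50 on the log2 scale passed the test at no stage (adjusted p = 0.045, 0.033 and 0.31). A second identifier of that name, GRMZM2G151993, also passed it at no stage. The light-harvesting gene lhcb6 (GRMZM2G092427), for a minor antenna protein of photosystem II, had 3680 and 3850 FPKM in SST M cells against 1030 and 757 FPKM in SST BS cells, and 2414 and 2573 FPKM in mature M cells against 1265 and 504 FPKM in mature BS cells. The antenna genes cp29 (GRMZM2G033885), cab-m7 (GRMZM2G402936) and cab-m9 (GRMZM2G155216) were higher in M at SST, by 2.27, 1.78 and 1.63 on the log2 scale, and at maturing, by 1.56, 1.71 and 1.33 (adjusted p = 0.0030, 0.0041 and 0.0082, and 0.0068, 0.0021 and 0.0098), but their differences of 0.98, 0.82 and 0.92 at mature did not pass. cab-m1 (GRMZM2G351977), with 10539 and 11632 FPKM in SST M cells against 3402 and 2840 FPKM in SST BS cells, was called at no stage. Its log2 differences were 1.86, 1.48 and 1.12 (limma, adjusted p = 0.028, 0.046 and 0.12). The shared SE of 0.42 includes its mature BS values, which differed widely, at 1223 and 413 FPKM. Its M to BS ratios were 3.55 at SST and 2.51 at maturing. lhcb5 (GRMZM2G149428) was called at SST alone (1.52, adjusted p = 0.0043), and the low gene cab48 at no stage. lhcb4 (GRMZM2G103101) was lower in M at each stage, by -1.64, -1.74 and -2.30.

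The triose phosphate branch and sucrose synthesis held 4 members. gpb1 (GRMZM5G845611), for a B-type subunit of the chloroplast glyceraldehyde-3-phosphate dehydrogenase, had 3813 and 4924 FPKM in SST M cells against 1370 and 1079 FPKM in SST BS cells, 14016 and 14058 FPKM in maturing M cells against 5263 and 4362 FPKM in maturing BS cells, and 4387 and 4878 FPKM in mature M cells against 2303 and 2079 FPKM in mature BS cells. It stood highest at maturing in both cell types. GAPA (GRMZM2G337113), for the A-type subunit of the same enzyme, had 2835 and 3095 FPKM in maturing M cells against 5772 and 6102 FPKM in maturing BS cells, the opposite bias. Its log2 differences of -0.36, -0.84 and -1.16 did not pass the test (adjusted p = 0.42, 0.048 and 0.015), although M and BS values did not overlap.

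sps1 (GRMZM5G875238) codes for sucrose-phosphate synthase, which makes the precursor of sucrose. It had 42.5 and 52.7 FPKM in SST M cells against 12.5 and 10.8 FPKM in SST BS cells, 377 and 369 FPKM in maturing M cells against 100.3 and 94.1 FPKM in maturing BS cells, and 149 and 200.1 FPKM in mature M cells against 57.2 and 21.9 FPKM in mature BS cells. SST was the lowest stage in both cell types. In the steps from phosphoglycerate to phosphoenolpyruvate, the enolase gene eno1 (GRMZM2G064302) had 577 and 544 FPKM in maturing M cells against 147 and 162 FPKM in maturing BS cells, and the phosphoglycerate mutase gene GRMZM5G833389 had 34.2 and 39.5 FPKM against 14.7 and 12.0 FPKM. The second enolase gene, eno2 (GRMZM2G048371), was lower in M at SST (-1.92, adjusted p = 0.0013) and maturing (-2.98, adjusted p = 5.1e-05) and not called at mature (-0.71, adjusted p = 0.038). pgk2 (GRMZM2G382914), for a phosphoglycerate kinase, passed the test at no stage.

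A further 2 members code for carriers of the plastid envelope. pOMT1 (GRMZM2G383088), which exchanges oxaloacetate or 2-oxoglutarate for malate, had 1087 and 1180 FPKM in SST M cells against 284 and 250.0 FPKM in SST BS cells, 1399 and 1312 FPKM in maturing M cells against 291 and 279 FPKM in maturing BS cells, and 358 and 450.4 FPKM in mature M cells against 191 and 97.9 FPKM in mature BS cells. pDCT1 (GRMZM2G040933), a dicarboxylate carrier, had ratios of 3.60, 3.70 and 3.70 in SST, maturing and mature cells. The last is a ratio of means of 317 and 510 FPKM in mature M cells against 141 and 82.6 FPKM in mature BS cells. pDCT2 (GRMZM2G086258), of the same family, had 46.1 and 41.1 FPKM in maturing M cells against 1323 and 1218 FPKM in maturing BS cells. Its log2 differences of -3.12, -4.70 and -3.45 at SST, maturing and mature all passed the test (limma, adjusted p = 8.3e-05, 7.4e-06 and 3.9e-05). pDCT1 and pDCT2 thus lay on opposite sides at each stage, and no further gene of the family was compared.

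Nitrogen and sulphur assimilation held 5 members. NR1 (GRMZM2G568636), for nitrate reductase, which turns nitrate into nitrite, had 49.6 and 60.0 FPKM in SST M cells against 10.3 and 10.7 FPKM in SST BS cells, 117 and 117 FPKM in maturing M cells against 26.2 and 30.05 FPKM in maturing BS cells, and 293 and 244 FPKM in mature M cells against 119.7 and 42.1 FPKM in mature BS cells. NIR (GRMZM2G079381), for nitrite reductase, which turns nitrite into ammonium in the plastid, had 96.4 and 91.9 FPKM in maturing M cells against 36.0 and 34.8 FPKM in maturing BS cells. The next steps, glutamine synthetase and glutamate synthase, were represented by gln5 (GRMZM2G036464), with 21.7 and 27.9 FPKM against 3.86 and 9.67 FPKM, and fgs1 (GRMZM2G036609), a ferredoxin-dependent glutamate synthase, with 211 and 209 FPKM against 72.6 and 79.7 FPKM in these cells. Each step from nitrate to glutamate thus had a member, but the most abundant glutamine synthetase gene, gln1, was not one of them.

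Of the other glutamine synthetase genes, gln6 (GRMZM2G050514) was lower in M at SST, maturing and mature, with log2 differences of -3.03, -4.23 and -3.20 (adjusted p = 0.0013, 7.7e-05 and 0.00047). gln2 (GRMZM2G024104) was lower in M at maturing (-6.37, adjusted p = 0.00080) and mature (-4.40, adjusted p = 0.0062), and gln3 (GRMZM2G046601) at SST (-3.81, adjusted p = 0.0014) and maturing (-5.90, adjusted p = 5.6e-05). gln1 (GRMZM2G098290), the most abundant, had 1442 and 1650 FPKM in maturing M cells against 1273 and 1341 FPKM in maturing BS cells and passed the test at no stage, and gln4 (GRMZM5G872068) had log2 differences of 1.02 at SST (adjusted p = 0.017), 0.69 at maturing (adjusted p = 0.052) and 1.10 at mature (adjusted p = 0.0093), of which the last passed. The cysteine synthase gene GRMZM2G036708, for the step that brings sulphide into cysteine, had a ratio of 6.01 at SST, 3.07 at maturing and 2.20 at mature.

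**Figure D3:**
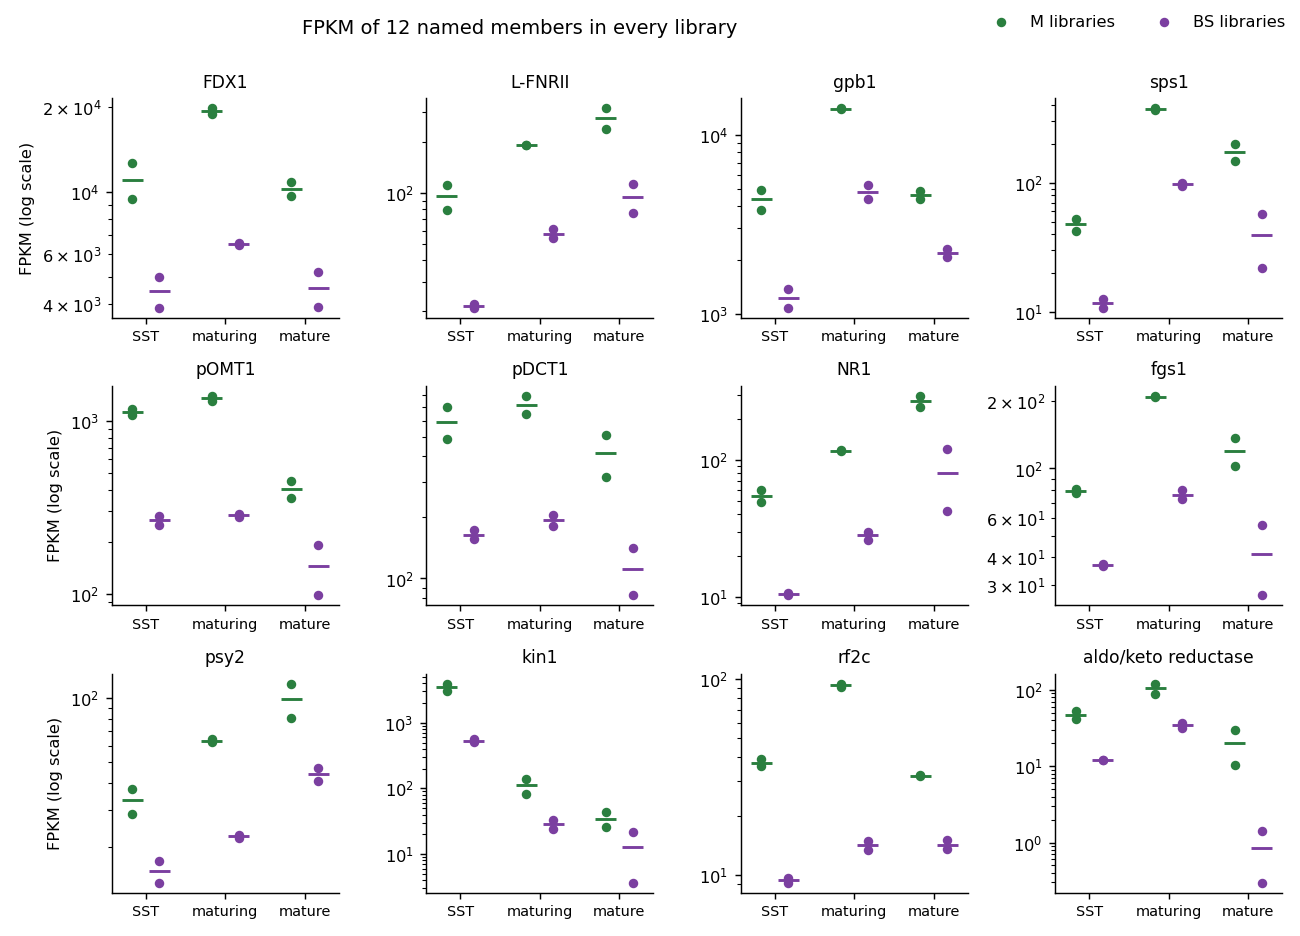
Each panel gives the FPKM of a named member (y axis, log scale) in the 12 libraries by stage (x axis), with M libraries in green at the left and BS libraries in purple at the right of each pair, and short bars for the mean of 2 libraries. FDX1, gpb1, sps1, fgs1 and rf2c peak at maturing in M, L-FNRII, NR1 and psy2 at mature, and kin1 falls steeply after SST.

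Isoprenoid synthesis held 3 members. dxr (GRMZM2G056975) codes for the reductoisomerase of the plastid isoprenoid pathway, psy2 (GRMZM2G149317) for a phytoene synthase, the first step of carotenoid synthesis, and eks1 for an ent-kaurene synthase, on the way to gibberellins. psy2 had 28.7 and 37.6 FPKM in SST M cells against 17.3 and 13.6 FPKM in SST BS cells, 62.1 and 64.4 FPKM in maturing M cells against 22.9 and 22.1 FPKM in maturing BS cells, and 80.8 and 117 FPKM in mature M cells against 46.9 and 41.1 FPKM in mature BS cells. psy1 (GRMZM2G300348) had 180 and 190 FPKM in maturing M cells against 202 and 189 FPKM in maturing BS cells, with log2 differences of 0.0045, 0.08 and -0.11 that did not pass the test. For dxr the M to BS ratio was 2.01, 2.84 and 3.56 in SST, maturing and mature cells. For other steps of these pathways, dxs1, Hds1, HDR, Pds, lcyE and CPS1 did not pass the M against BS test at any stage, with log2 differences between -0.41 and 0.92. eks1 had 49.5 and 104.9 FPKM in mature M cells against 9.75 and 1.22 FPKM in mature BS cells, so its ratio of 14.1 there rests on BS values that differ widely.

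Lipids and defence held 6 members. lox10 (GRMZM2G015419) codes for a lipoxygenase that serves the synthesis of green leaf volatiles. It had 297 and 331 FPKM in SST M cells against 67.7 and 52.0 FPKM in SST BS cells, 371 and 446 FPKM in maturing M cells against 198 and 146 FPKM in maturing BS cells, and 326 and 397 FPKM in mature M cells against 132 and 38.6 FPKM in mature BS cells. The jasmonate gene aos1 and the lipoxygenase genes lox4, lox5 and lox6 were not called at any stage. The log2 differences at SST, maturing and mature were 2.53, 2.40 and 2.65 for aos1, and 1.92, 1.77 and 1.18 for lox4. They were 2.62, 1.40 and 1.61 for lox6, and 2.15, -0.37 and 1.15 for lox5. For aos1, lox4 and lox6, M was more than 2 times BS at each stage, without overlap. These genes missed the floor of 20 FPKM in M, lox6 at maturing alone, with a mean of 18.3 FPKM. The other members with these roles were 2 lipase genes (GRMZM2G353444 and GRMZM2G331720), an acetyl-CoA synthetase gene (GRMZM2G157269), AAMT2 and bx6.

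bx6 (GRMZM6G617209) codes for a dioxygenase of the late part of benzoxazinoid synthesis, which makes defence compounds of grasses. It had 58.0 and 32.9 FPKM in SST M cells against 7.34 and 6.64 FPKM in SST BS cells, 16.1 and 27.0 FPKM in maturing M cells against 5.32 and 8.10 FPKM in maturing BS cells, and 54.8 and 66.9 FPKM in mature M cells against 15.9 and 10.1 FPKM in mature BS cells. Of the other genes of that pathway, bx1 (GRMZM2G085381) was lower in M at maturing (-2.26, adjusted p = 0.0092), bx9 (GRMZM2G161335) at maturing (-1.65, adjusted p = 0.00042) and mature (-1.48, adjusted p = 0.0012), and bx3, bx4 and bx5 at mature (-1.08, -2.25 and -2.26, adjusted p = 0.0038, 0.0010 and 0.00047). bx8 passed the test at no stage, and neither did bx2 (GRMZM2G085661), which had 122 and 152 FPKM in maturing M cells against 52.8 and 57.2 FPKM in maturing BS cells. The log2 differences of bx2 were 1.46, 1.46 and 2.36 (adjusted p = 0.23, 0.20 and 0.047). Its mature BS values of 2.17 and 0.165 FPKM differed widely and enter the shared spread used at every stage. AAMT2 (GRMZM2G116966), for an anthranilate methyltransferase, had ratios of 4.87, 2.98 and 7.34 at SST, maturing and mature. The last rests on 95.3 and 126 FPKM in mature M cells against 22.5 and 7.67 FPKM in mature BS cells, which differ widely. AAMT1 (GRMZM2G039993) was higher in M at SST (1.91, adjusted p = 0.0033) and maturing (1.28, adjusted p = 0.0082) but lower in M at mature (-2.17, adjusted p = 0.0012), where it had 0.310 and 0.196 FPKM in M cells against 1.73 and 2.20 FPKM in BS cells. AAMT3 (GRMZM2G063438) was higher in M at SST (1.67, limma, adjusted p = 0.0035) and maturing (1.33, adjusted p = 0.0041). It was not called at mature (-0.81, adjusted p = 0.038).

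**Figure D4:**
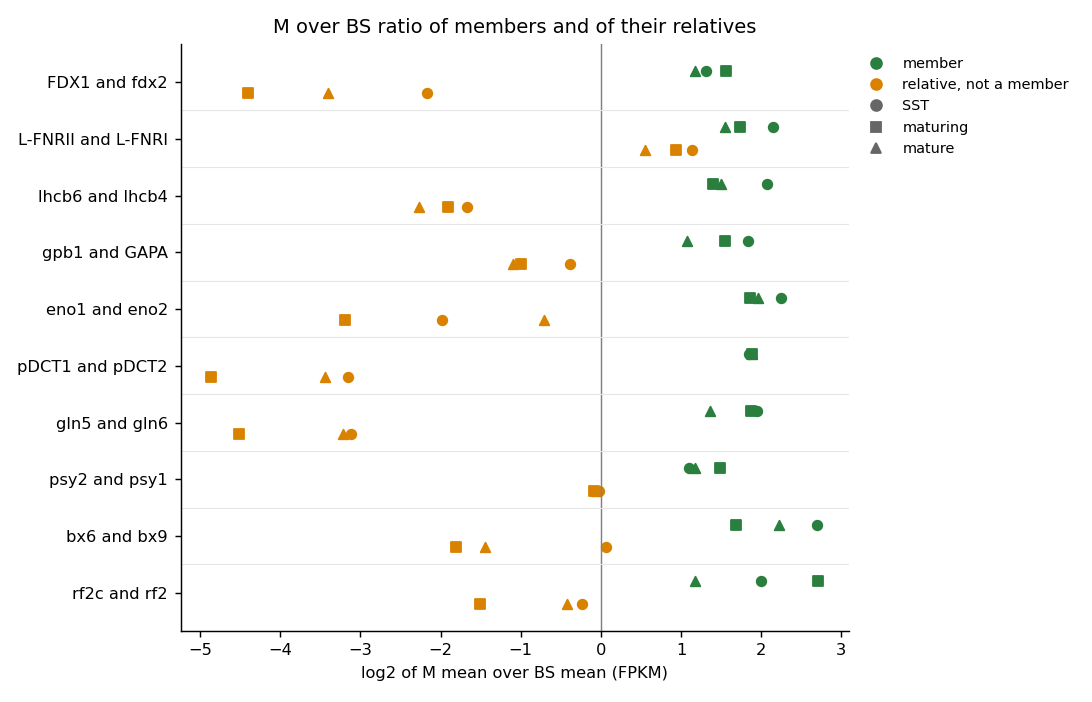
The x axis gives the log2 ratio of the M mean to the BS mean in FPKM, and each row on the y axis pairs a member (green) with a relative that is not a member (orange), with a symbol for each stage. Members lie at 1 or above by the rule, while fdx2, lhcb4, GAPA, eno2, pDCT2, gln6 and rf2 lie below 0 at all stages, bx9 at 2 of the 3, psy1 close to 0, and L-FNRI above 0. The relatives drawn were picked after the values were seen and do not stand for their families. Others that are not drawn, such as cp29, cab-m7, gln4, bx2 and lox4, had ratios above 0 on this scale at all stages.

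Cell wall and cell structure held 5 members, with the expansin B2 gene GRMZM2G094990 as the most abundant, at 475 and 453 FPKM in maturing M cells against 168 and 159 FPKM in maturing BS cells. Actin-11 (GRMZM2G047055), VAP27-2 (GRMZM2G053273), which tethers the endoplasmic reticulum to the plasma membrane, and histone2b1 were just above the limit, with smallest ratios of 2.06, 2.04 and 2.005. Among the 9 other named members were rf2c (GRMZM2G071021), for an aldehyde dehydrogenase, bZIP61 (GRMZM2G137046), a transcription factor, an alpha-galactosidase gene (GRMZM2G346455), which removes galactose from sugars and lipids, and an aldo/keto reductase gene (GRMZM2G111954). Zmb561 (GRMZM2G060357, a cytochrome b561 gene), ERD4 (GRMZM6G732597), FIP1 (GRMZM2G009326), kin1 (GRMZM2G158394) and a gene annotated to the isocitrate lyase category (GRMZM2G024933) completed the list. bZIP61 had 102 and 80.5 FPKM in maturing M cells against 13.2 and 11.3 FPKM in maturing BS cells, and 86.5 and 102 FPKM in mature M cells against 44.4 and 47.1 FPKM in mature BS cells. Its M to BS ratio in SST, maturing and mature cells was 3.73, 7.45 and 2.06.

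The change of the members between stages was not used to choose them, apart from the floor of 20 FPKM in M and the 2-fold limit at each stage. It was tested for each cell type by limma on log2 values scaled to a common upper quartile. The fit gave each gene a common spread over all 12 libraries. Scatter in any group, mature BS among them, thus enters the tests of M as well as those of BS. In M cells 43 of 182 members rose between SST and maturing and 3 fell, with a median log2 change of 0.85. Over all 32548 genes tested 4.48% rose and 3.87% fell, with a median of 0, and over the 2432 other genes with a scaled M mean of at least 20 FPKM at every stage 17.7% rose and 7.52% fell, with a median of 0.39. Of the members, 23.6% rose and 1.65% fell. The scaling itself moved moderately abundant genes by a median of 0.23 in this comparison, and with the values as deposited 24 members rose. Leaving out any 1 of the SST or maturing libraries left 4 to 22 risers, the fewest without the second maturing M library.

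The largest called rise among the named members was that of sps1, of 3.22 ± 0.38 on the log2 scale (SE, adjusted p = 0.0012), and the largest called rise of an unnamed one was that of GRMZM2G147279, of 2.99 ± 0.30 (adjusted p = 0.00060), at 190 and 174 FPKM in maturing M cells and 19.97 and 36.5 FPKM in SST M cells. gpb1 rose by 1.95 ± 0.19 (adjusted p = 0.00055) and rf2c by 1.56 ± 0.12 (adjusted p = 0.00026), and these and GRMZM2G147279 kept their call under all 18 alternatives, sps1 under 15. fgs1 and the acetyl-CoA synthetase gene rose by 1.65 each, L-FNRII by 1.28, FIP1 by 1.28, psy2 by 1.19 and the alpha-galactosidase gene by 0.94 (adjusted p = 0.0072, 0.0051, 0.0081, 0.0034, 0.0098 and 0.0077). Their calls held under 3, 5, 4, 13, 2 and 2 of the 18 alternatives.

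The 3 members that fell between SST and maturing in M cells were kin1, GRMZM5G856773 and GRMZM2G026780, which are all named because they are so few. kin1 had 3090 and 3959 FPKM in SST M cells against 563 and 506 FPKM in SST BS cells, 83.0 and 140.4 FPKM in maturing M cells against 33.1 and 24.3 FPKM in maturing BS cells, and 43.2 and 25.9 FPKM in mature M cells against 21.6 and 3.64 FPKM in mature BS cells. Its fall to maturing was one of -4.77 ± 0.68 in M (adjusted p = 0.0027) and -4.11 ± 0.68 in BS (adjusted p = 0.0039), calls that held under 11 and 8 of the 18 alternatives. GRMZM5G856773 fell by 3.66 in M and by 3.65 in BS (adjusted p = 0.00048 and 0.00026), under all alternatives in both. GRMZM2G026780 fell by 1.40 in M and by 1.55 in BS (adjusted p = 0.0044 and 0.0021), under 9 and 14 of the alternatives.

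Between maturing and mature most called members fell. In M cells 39 fell and 2 rose, with a median log2 change of -0.59, where 6.95% of all genes tested fell and 7.31% rose, and 18.5 and 9.95% of the other abundant genes, with a median of -0.17. Without 1 library, 15 to 51 members fell, with 15 without either maturing M library, 21 without the first mature M library and 25 without the second maturing BS library. The largest called falls were those of GRMZM2G032430, of -3.22 ± 0.30 (adjusted p = 0.00019), at 22.5 and 38.6 FPKM in mature M cells and 255 and 251 FPKM in maturing M cells, and of GRMZM2G030494, of -3.17 ± 0.17 (adjusted p = 1.3e-05). Both held under all 18 alternatives. GRMZM2G059642 had a larger change of -3.69 ± 1.62 in M that was not called (limma, adjusted p = 0.14). It had 2845 and 2501 FPKM in maturing M cells and 176 and 288 FPKM in mature M cells. Its mature BS values of 21.5 and 0 FPKM enter that SE. pOMT1 fell by 1.88 ± 0.27 (adjusted p = 0.0017), gpb1 by 1.73 ± 0.19 (adjusted p = 0.00042) and rf2c by 1.65 ± 0.12 (adjusted p = 6.3e-05), and these calls held under 15, 18 and 18 alternatives.

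FDX1 fell by 1.04 ± 0.22 (adjusted p = 0.0098), a call lost under all 18 alternatives, and the alpha-galactosidase gene by 0.82 (adjusted p = 0.0098), lost under 15. The members that rose, GRMZM5G832313 and GRMZM2G481261, had no name. GRMZM5G832313 had 668 and 1012 FPKM in mature M cells against 482 and 264 FPKM in mature BS cells, and 121 and 106 FPKM in maturing M cells against 32.9 and 67.6 FPKM in maturing BS cells, a log2 change of 2.73 ± 0.40 in M (adjusted p = 0.0017) that held under 15 alternatives. GRMZM2G481261 changed by 1.59 ± 0.30 (adjusted p = 0.0059) after a rise of 1.75 ± 0.30 between SST and maturing (adjusted p = 0.0059), the calls held under 9 and 8 alternatives. NR1 had log2 changes of 1.34 and then 1.07 in M, neither of which passed the test (adjusted p = 0.049 and 0.086). In all, 73 members were called in at least 1 of the 2 stage comparisons in M, and 13 both rose to maturing and fell after it. The matching shares over all genes tested and over the other abundant genes were not computed. These 2 counts are therefore not read as a trait of the members.

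The M mean peaked in SST cells for 35 members, in maturing cells for 98 and in mature cells for 49. For the BS means these numbers were 27, 104 and 51, and in 139 members both cell types were highest at the same stage. Peak stages of other genes were not counted, so these numbers are not read as a trait of the members. In BS cells 41 members rose between SST and maturing and 4 fell, against 6.10 and 5.01% of all genes tested and 23.3 and 11.1% of the other abundant genes. Between maturing and mature 8 rose and 28 fell in BS cells, where 7.79 and 6.57% of all genes tested and 12.8 and 12.4% of the other abundant genes did. The last count rested on the mature BS libraries, as 55 members fell without the first of them and 15 without the second, and 12 to 18 fell without an SST BS library or any maturing library. Without any 1 SST or maturing BS library, 6 or 7 members rose between SST and maturing, and without a maturing M library 19 or 20 did. The 4 that fell were kin1, GRMZM5G856773, GRMZM2G026780 and GRMZM2G027479.

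Of the named members, gpb1 rose by 2.09 ± 0.19 and sps1 by 3.15 ± 0.38 in BS cells between SST and maturing (adjusted p = 0.00022 and 0.00086). L-FNRII, the acetyl-CoA synthetase gene, FIP1, the alpha-galactosidase gene and rf2c also rose, by 1.52, 1.94, 0.99, 0.88 and 0.69 (adjusted p = 0.0029, 0.0018, 0.0083, 0.0082 and 0.0058). After maturing, the aldo/keto reductase gene, with 1.40 and 0.296 FPKM in mature BS cells and 32.0 and 36.8 FPKM in maturing BS cells, fell by 5.13 ± 0.59 (adjusted p = 0.00050). In M cells it had 10.4 and 30.1 FPKM at mature and 88.4 and 120.9 FPKM at maturing, and its change of -2.66 ± 0.59 did not pass (adjusted p = 0.012). AAMT2 fell by 2.93 (adjusted p = 0.0017) and gpb1 by 1.06 (adjusted p = 0.0046) in BS cells. The cysteine synthase gene rose by 1.26 and bZIP61 by 1.96 there (adjusted p = 0.0037 and 0.0036). The call of the aldo/keto reductase gene and the rise of gpb1 held under all 18 alternatives, AAMT2 under 17, sps1 under 15, the acetyl-CoA synthetase and cysteine synthase genes under 14, L-FNRII under 13, rf2c and bZIP61 under 11 and the fall of gpb1 under 10, but FIP1 and the alpha-galactosidase gene only under 3.

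**Figure D5:**
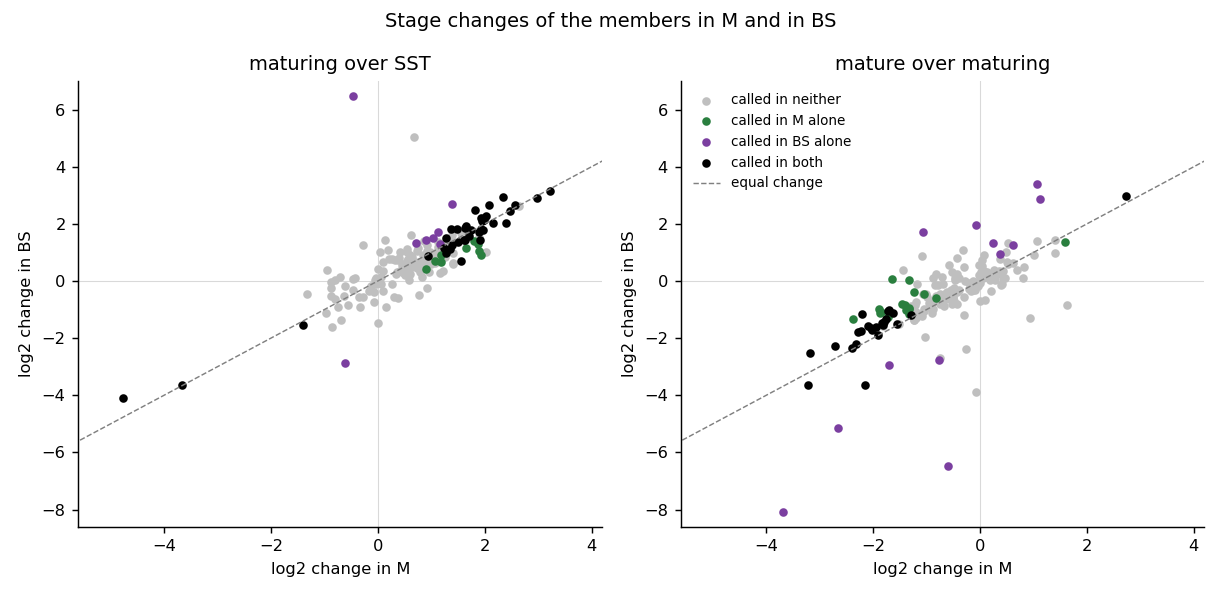
The x axis gives the fitted log2 change of each member in M and the y axis that in BS, for maturing over SST (left) and mature over maturing (right); colours show in which cell type the change was called and the dashed line marks equal change. The members kin1 and GRMZM5G856773 lie at the lower left of the first panel, and GRMZM2G530577, listed at 0 in SST and mature BS cells, lies far from it at 6.46 in BS at left and -6.46 at right.

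Across the 182 genes, which are not independent replicates and share their libraries, the changes in M and BS had Pearson's r of 0.74 for maturing over SST and 0.64 for mature over maturing, and 163 and 153 members had the same sign in both. No matching r or share was computed for all genes tested or for the other abundant genes. Like change in both cell types is therefore not read as a trait of the members. The M minus BS difference of the change was called in no member upward and in 1 downward between SST and maturing, where 0.135 and 0.172% of all genes tested were called (limma, with 10 and 6 members at an unadjusted p under 0.05). Between maturing and mature it was called in 1 upward and 1 downward, where 0.578 and 0.356% of all genes were called (5 and 20 members at an unadjusted p under 0.05). The median of this last difference was -0.17 over the members, -0.20 over the 2432 other abundant genes and 0 over all genes tested. The rule keeps the ratio above 2 at each stage and so limits how far it can move, and without the first mature BS library 6 members were called upward.

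rf2c was one of these genes. It had 36.0 and 38.9 FPKM in SST M cells against 9.67 and 9.09 FPKM in SST BS cells, 90.8 and 95.1 FPKM in maturing M cells against 15.0 and 13.3 FPKM in maturing BS cells, and 32.3 and 31.9 FPKM in mature M cells against 15.0 and 13.5 FPKM in mature BS cells. Its M level was highest at maturing, while BS cells held nearly the same level at maturing and mature. The change from maturing to mature was -1.65 ± 0.12 in M and 0.08 ± 0.12 in BS, a difference of -1.73 (limma, adjusted p = 0.0024, called under 17 of 18 alternatives), and the M to BS ratio was 3.99, 6.57 and 2.25 at SST, maturing and mature. Its relative rf2 (GRMZM2G058675) was lower in M at maturing (-1.34, adjusted p = 0.0026), with 51.4 and 58.3 FPKM in M cells against 165 and 147 FPKM in BS cells, and passed the test at no other stage.

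GRMZM2G530577, with no name, was the other. It had 109 and 50.0 FPKM in SST M cells, 32.1 and 63.9 FPKM in maturing M cells against 16.0 and 31.3 FPKM in maturing BS cells, and 29.0 and 36.7 FPKM in mature M cells, and was listed at 0 in both SST BS and both mature BS libraries. The differences of the change, -6.92 between SST and maturing and 5.87 between maturing and mature, depend on the pseudocount, since they start from or end at listed zeros, and give no bound on a fold change. GRMZM2G059642 was a like case at mature, with 176 and 288 FPKM in mature M cells against 21.5 FPKM in the first mature BS library and a listed 0 in the second.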

How the data were processed

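RNA from laser-captured BS and M cells at 3 stages was measured in 12 libraries, 2 per group. The authors deposited 1 FPKM value per gene and library, a fragment count scaled to transcript length and to the mapped total, and no read counts were used. The submitters' processing notes name CASAVA 1.3, TopHat2 2.0.10, TopHat, Cuffdiff 2.1.1 and B73 RefGen v3 without giving their roles, while the study's methods cite an earlier protocol and gene set, so no coordinates are given. Reads of Mo17 were set against B73 gene models, and close copies may share reads.

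Members and gene lists were chosen with earlier results of these data known. Levels and M to BS ratios are FPKM as deposited. For tests, the upper quartile of each library was brought to 2.56 FPKM and 0.256 was added as a pseudocount. The 32548 genes that reached the pseudocount in the mean of some group entered a limma 3.58.1 fit in R 4.3.3 with 6 group means, a trend, 6 residual degrees of freedom and 2.12 prior ones. All fitted changes are on this log2(value + pseudocount) scale, which understates the change of low genes. The p-values were adjusted by Benjamini-Hochberg over all genes tested in each comparison and called below 0.01. Relative depth came from the steps that single reads leave in low values, and the precision of low genes is limited by it.

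The genes named were to be the annotated members that were the most abundant of a functional class, had the largest ratios, lay at the 2-fold limit, changed most between stages, or are named in the study's text, plus at most 2 unnamed genes that led a ranking. The classes were to be matched to gene descriptions, which were not at hand, so the 37 named members were grouped by role and relatives of some of them were chosen by family after the values were seen. The genes of counts of 5 or fewer were also named after their values were seen. Names come from the RefSeq annotation of Zm-B73-REFERENCE-NAM-5.0 and from the annotation supplied with the study. The alternatives were other scalings, a pseudocount of one hundredth of the quartile, no filter, no trend, a replicate block, other limits in the rule, and each library left out. Tables and plots used Python 3.11.15, pandas 2.3.3, NumPy 2.4.6 and matplotlib 3.10.9.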

Additional observations from a re-analysis of the deposited data

Results flagged for a closer look

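The aldehyde dehydrogenase gene rf2c stood out because its change from maturing to mature differed between the cell types by a test of the difference itself, -1.73 on the log2 scale for M minus BS (limma, adjusted p = 0.0024). Both mature M libraries lay below both maturing M libraries, while the mature and maturing BS libraries overlapped. GRMZM2G530577 stood out in the same way in both stage comparisons, with a difference of -6.92 for maturing over SST (adjusted p = 0.0037) and of 5.87 for mature over maturing (adjusted p = 0.0044). All 4 SST BS and mature BS libraries list it at 0, and these calls held under 13 and 11 of 18 alternatives. With 2 libraries per group no library could be tested as an outlier of its group.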

How the results depend on the processing

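Of the members that rose in M between SST and maturing, 24 were called with the values as deposited, 24 with median-of-ratios scaling, 19 without a trend and 31 with a replicate block, against 43. Without a trend 24 rose in BS in that comparison, 1 rose in M and 5 rose in BS between maturing and mature, and the downward difference of rf2c was lost (0). With median-of-ratios scaling 7 fell in BS between SST and maturing. With the replicate block, a pairing by number that no correlation bore out (-0.042 to 0.016), both differences of GRMZM2G530577 were lost (0 and 0). A limit of 1.5 times gave 368 members and one of 3 times 45, and the rule at SST and maturing alone, added after seeing the data, 318. Without 1 library (a lone sample is then assumed to vary like the other groups), the counts of members ranged over 4 to 48 up and 1 to 3 down in M, and 6 to 54 up and 1 to 5 down in BS, for maturing over SST, and over 0 to 5 up and 15 to 51 down in M, and 3 to 10 up and 12 to 55 down in BS, for mature over maturing. The differences ranged over 0 up and 0 to 1 down, and 0 to 6 up and 1 to 2 down, and the rule gave 144 to 200 genes. No change of a named member that was called changed direction under any of these alternatives. The causes were not tested. Depth limits BS values near 0, where 1 read was worth 0.063 to 0.170 FPKM in the BS libraries.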
